A study of Mus musculus with 4 samples.

Results

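The genes of 6 interleukin-1 family receptors, Il1r2, Il1r1, Il1rl2, Il1rl1, Il18r1 and Il18rap, lie side by side on mouse chromosome 1, and the open chromatin of this cluster was examined in T cells cultured with or without IL-4. Every ATAC-seq peak from 50 kb upstream of Il1r2 to 50 kb beyond Il18rap (chr1:40034692-40601707 on GRCm38, the same assembly as mm10, 567 kb) was taken from the 4 deposited peak lists, and peaks of different libraries that shared at least 1 base were merged into 1 region. This gave 63 regions, of 93679 in the whole series. Each region was assigned to the gene it overlapped in the RefSeq annotation, or to the gap between genes. The rule for the regions used position alone.

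ATAC-seq uses the transposase Tn5, which inserts sequencing adapters where DNA is not wrapped in nucleosomes, so that a peak marks accessible chromatin. The cells were naive CD4+ T cells (CD62Lhigh CD44low CD25-) sorted from the spleens of male wild-type C57BL/6 mice aged 7 weeks. In both conditions they were activated by antibodies to CD3 (on the plate, 5 µg/ml) and CD28 (in solution, 1 µg/ml) and were polarized for 48 h toward induced regulatory T (iTreg) cells, with IL-2 at 10 ng/ml and human TGF-β1 at 5 ng/ml. iTreg+PBS libraries (n = 2) had no IL-4, and iTreg+IL-4 libraries (n = 2) had mouse IL-4 at 15 ng/ml. The study describes its 2 replicates as independent pooled samples. Such a culture holds cells at different stages of polarization, and the lists cannot tell a change in the share of cells with an open site from a change within each cell.

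The receptors of the interleukin-1 family work as pairs, with a chain that binds the ligand and an accessory chain, and they signal through Myd88 and the Irak kinases to NF-kappaB. Il1r1 encodes the signalling receptor for IL-1, and Il1r2 a decoy that binds IL-1 without signalling. Il1rl2 encodes the receptor for IL-36. Il1rl1 encodes ST2, the receptor for IL-33, which is well known on Th2 cells and on tissue regulatory T cells. Il18r1 and Il18rap encode the binding chain and the accessory chain of the receptor for IL-18, a cytokine that acts on Th1 cells. IL-4 acts through the transcription factor STAT6 and drives Th2 differentiation, and the comparison asked whether adding it during iTreg polarization went with a different set of accessible regions at these genes.

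The sequences of 8 regions that the results below turn on are shown first. Each is a stretch of 240 bases of the forward strand of GRCm38, read 5′ to 3′, from within the bases covered by a peak in all 4 libraries. None overlaps an annotated exon. Capitals mark matches that lie wholly inside the stretch to the following motifs on either strand: STAT6 type (TTCNNNNGAA), STAT5 type (TTCNNNGAA), the GATA motif (AGATAA, also TGATAA), AP-1 (TGANTCA), NF-kappaB (GGG and CC with any 5 bases between them), RUNX (TGTGGT) and ETS (AGGAAG). In these, N is any base. A match describes the letters and is not a bound site.

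The first 3 stretches come from the gap between Il1rl2 and Il1rl1. The region at 298 kb from the Il1r2 start ranked lower in both IL-4 libraries (chr1:40382874-40383113), the region at 309 kb was the strongest of the gap in all 4 libraries (chr1:40393353-40393592), and the region at 315 kb ranked higher in both IL-4 libraries (chr1:40399689-40399928).

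Gap, 298 kb: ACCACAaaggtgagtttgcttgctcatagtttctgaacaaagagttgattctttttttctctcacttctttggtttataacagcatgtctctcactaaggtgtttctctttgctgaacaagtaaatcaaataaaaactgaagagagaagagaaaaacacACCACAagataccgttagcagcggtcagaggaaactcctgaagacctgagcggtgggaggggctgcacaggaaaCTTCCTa

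Gap, 309 kb: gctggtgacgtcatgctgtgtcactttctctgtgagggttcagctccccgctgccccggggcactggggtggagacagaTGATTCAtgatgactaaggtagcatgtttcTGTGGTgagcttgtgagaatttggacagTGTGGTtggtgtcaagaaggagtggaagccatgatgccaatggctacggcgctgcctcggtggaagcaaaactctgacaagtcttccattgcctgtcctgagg

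Gap, 315 kb: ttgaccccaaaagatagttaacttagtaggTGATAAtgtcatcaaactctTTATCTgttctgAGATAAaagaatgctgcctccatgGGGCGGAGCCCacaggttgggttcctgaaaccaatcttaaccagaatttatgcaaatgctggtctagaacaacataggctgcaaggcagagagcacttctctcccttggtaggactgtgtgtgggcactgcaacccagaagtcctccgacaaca

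The next pair lies in introns of Il1rl1. The region at 329 kb (chr1:40413140-40413379) had the largest difference in mean rank of the cluster, and the region at 360 kb (chr1:40444786-40445025) was the strongest of the gene in 3 libraries.

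Il1rl1 intron, 329 kb: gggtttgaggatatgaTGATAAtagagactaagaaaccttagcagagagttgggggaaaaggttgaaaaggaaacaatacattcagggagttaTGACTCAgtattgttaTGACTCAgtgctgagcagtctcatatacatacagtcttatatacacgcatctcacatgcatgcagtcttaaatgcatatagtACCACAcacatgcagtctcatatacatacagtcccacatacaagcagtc

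Il1rl1 intron, 360 kb: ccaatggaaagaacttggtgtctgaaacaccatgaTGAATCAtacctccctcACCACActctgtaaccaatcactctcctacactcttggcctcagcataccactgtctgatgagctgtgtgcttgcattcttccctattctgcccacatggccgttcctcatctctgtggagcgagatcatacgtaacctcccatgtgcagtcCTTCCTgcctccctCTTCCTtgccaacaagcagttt

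A further pair lies in introns of Il18r1, at 391 kb (chr1:40475731-40475970) and 395 kb (chr1:40479571-40479810), where ranks overlapped between the conditions. They were picked because their mean rank differences were the smallest of the shared intronic regions of the gene. The last stretch is the 240 bases before the Il18rap start (chr1:40515122-40515361), at 431 kb.

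Il18r1 intron, 391 kb: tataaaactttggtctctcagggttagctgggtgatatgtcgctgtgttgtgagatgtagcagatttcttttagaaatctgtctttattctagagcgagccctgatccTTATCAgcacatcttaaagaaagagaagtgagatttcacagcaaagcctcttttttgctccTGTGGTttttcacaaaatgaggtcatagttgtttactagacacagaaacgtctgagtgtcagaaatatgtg

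Il18r1 intron, 395 kb: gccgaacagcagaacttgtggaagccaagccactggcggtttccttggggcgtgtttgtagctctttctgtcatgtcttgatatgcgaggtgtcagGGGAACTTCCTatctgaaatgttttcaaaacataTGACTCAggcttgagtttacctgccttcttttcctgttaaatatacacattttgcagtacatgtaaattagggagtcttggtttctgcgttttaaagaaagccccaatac

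Il18rap start, 431 kb: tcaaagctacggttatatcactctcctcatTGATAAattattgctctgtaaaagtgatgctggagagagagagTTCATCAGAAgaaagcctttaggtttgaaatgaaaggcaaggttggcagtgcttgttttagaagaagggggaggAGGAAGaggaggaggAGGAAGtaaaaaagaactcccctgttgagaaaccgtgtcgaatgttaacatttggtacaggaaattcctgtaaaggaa

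The 4 lists held 56645 to 78670 peaks, fewest in iTreg+PBS replicate 2. Depth is unknown, since no reads are in the lists, and an uncalled region may be one that the caller could not detect at the depth of that library. All 10 T cell marker genes examined had a peak within 1 kb of a start site in every library, Cd3e and Cd4 included, against 58.1% of 23152 coding genes. Such a peak was found in all 4 libraries at 1 of 5 myeloid markers (Cd14), 0 of 3 NK cell markers and 1 of 5 mast cell and basophil markers (Kit), Itgam had it in all but iTreg+PBS replicate 2, Klrb1c in iTreg+IL-4 replicate 1 only, and Csf1r, Lyz2, Ncr1 and Fcer1a in none. Among B cell genes, Pax5 had it in all 4 libraries, Ms4a1 in all but iTreg+PBS replicate 1, Cd79b in iTreg+IL-4 replicate 2 only and Cd79a in none. All 3 erythroid markers (Gata1, Klf1 and Epor) had it in every library. A start site peak does not measure transcription.

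The cluster was dense in accessible regions, and none of them was called in both libraries of 1 condition only. It held 11.1 regions per 100 kb, against 3.43 per 100 kb over the assembled chromosomes. A peak was present in 55 regions in iTreg+PBS replicate 1, 32 in iTreg+PBS replicate 2, 51 in iTreg+IL-4 replicate 1 and 40 in iTreg+IL-4 replicate 2. The IL-4 libraries lay between the PBS libraries, with a mean of 45.5 ± 7.78 (SD, n = 2) for iTreg+IL-4 and of 43.5 ± 16.3 (SD, n = 2) for iTreg+PBS, and the difference of 2 regions was smaller than the pooled SD of 12.7 (exact permutation test, two-sided, p = 1). With 2 libraries against 2 the smallest p this test allows is 0.33. Leaving out iTreg+PBS replicate 2 turned the difference to -9.5 regions, and leaving out iTreg+IL-4 replicate 1 turned it to -3.5. Without IL-4, the bases of the stretch under peaks numbered 23893 in replicate 1 and 12452 in replicate 2. With IL-4 they numbered 21257 in replicate 1 and 16457 in replicate 2. The mean was higher by 684.5 bases with IL-4, against a pooled SD of 6204 bases (exact permutation test, two-sided, p = 1), and this sign turned as well without either of these libraries (-5036 and -1715.5 bases).

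**Figure D1:**
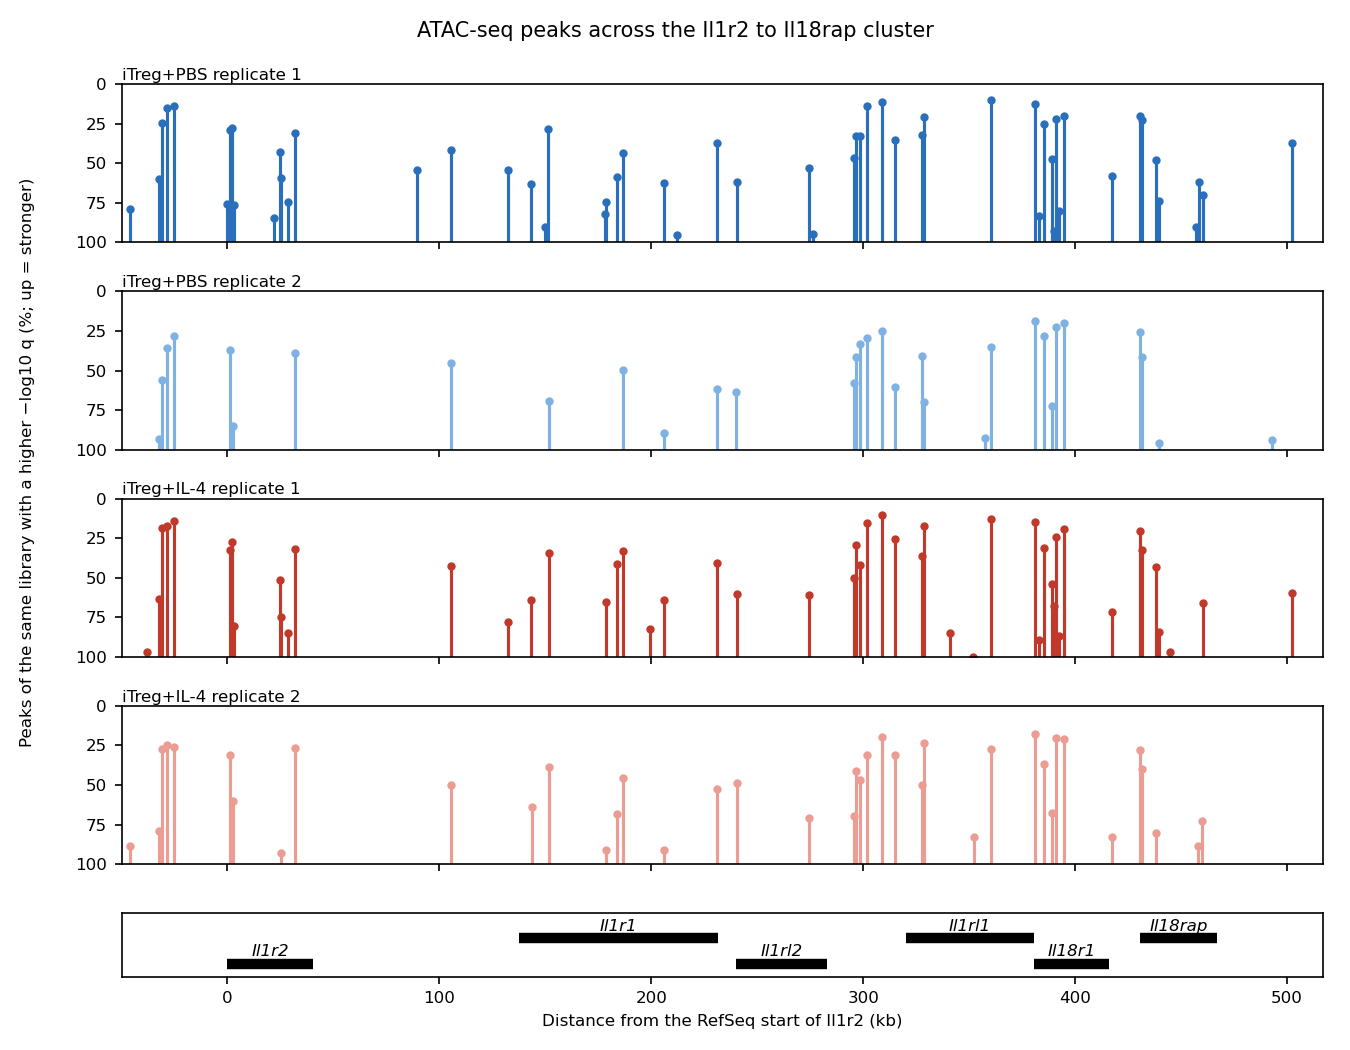
Peaks of each library along the cluster, by distance from the RefSeq start of Il1r2 (kb), with the 6 genes drawn below. The height of a line gives the percent of peaks in the same library that had a higher −log10 q (axis inverted, so taller is stronger), and in all 4 libraries the region before Il1rl1 at 309 kb and the start of Il18r1 at 381 kb are among the tallest lines.

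No region was called in both IL-4 libraries and in neither PBS library, where 2.60% of all regions of the series were, a share that over 63 regions comes to 1.64. No region was called in both PBS libraries and in neither IL-4 library either, where 0.699% of all regions were. A peak was called in all 4 libraries in 29 regions (46.0%, against 51.0% of all regions). A further 8 regions (12.7%) had a peak in every library but iTreg+PBS replicate 2, against 9.97% of all regions, and 8 (12.7%) had one in replicate 1 of both conditions only, as did 7.60% of all regions. Of the 63 regions, 15 (23.8%) were called in 1 library, against 21.6% of all regions: 7 in iTreg+PBS replicate 1, 2 in iTreg+PBS replicate 2, 5 in iTreg+IL-4 replicate 1 and 1 in iTreg+IL-4 replicate 2. Another 2 regions had a peak in replicate 1 without IL-4 and replicate 2 with IL-4, and 1 had a peak in all but iTreg+IL-4 replicate 2. The shares called in all 4 libraries, in all but iTreg+PBS replicate 2 and in 1 library were near those of the series. The counts of 0 depend on single libraries. Those particular to IL-4 numbered 8 (13.6% in the series) without iTreg+PBS replicate 1, 5 (11.1%) without iTreg+IL-4 replicate 2 and 1 (7.25%) without iTreg+IL-4 replicate 1. Those particular to PBS numbered 7 (8.21%) without iTreg+PBS replicate 2, 2 (3.25%) without iTreg+PBS replicate 1 and 1 (3.20%) without iTreg+IL-4 replicate 1.

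The regions were spread unevenly over the genes, whose lengths ran from 35.3 kb (Il18r1) to 93.7 kb (Il1r1). Over the series, 51.0% of regions were called in all 4 libraries, and the counts per gene or gap are small beside this share. In the gap between Il1rl2 and Il1rl1, all 6 regions were called in all 4 libraries, and so were 4 of 6 upstream of Il1r2 and 5 of 8 in Il18r1. The share was lower in Il1r1 (4 of 10), Il1rl1 (3 of 7), Il1r2 (3 of 9), Il1rl2 (1 of 3) and Il18rap (2 of 8). The gap between Il1r2 and Il1r1 had 3 regions with 1 shared, the gap between Il18r1 and Il18rap had 1 region, called in all libraries but iTreg+PBS replicate 2, and the stretch beyond Il18rap had 2 regions, none of them shared. No region lay in the gaps between Il1r1 and Il1rl2 or between Il1rl1 and Il18r1.

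**Figure D2:**
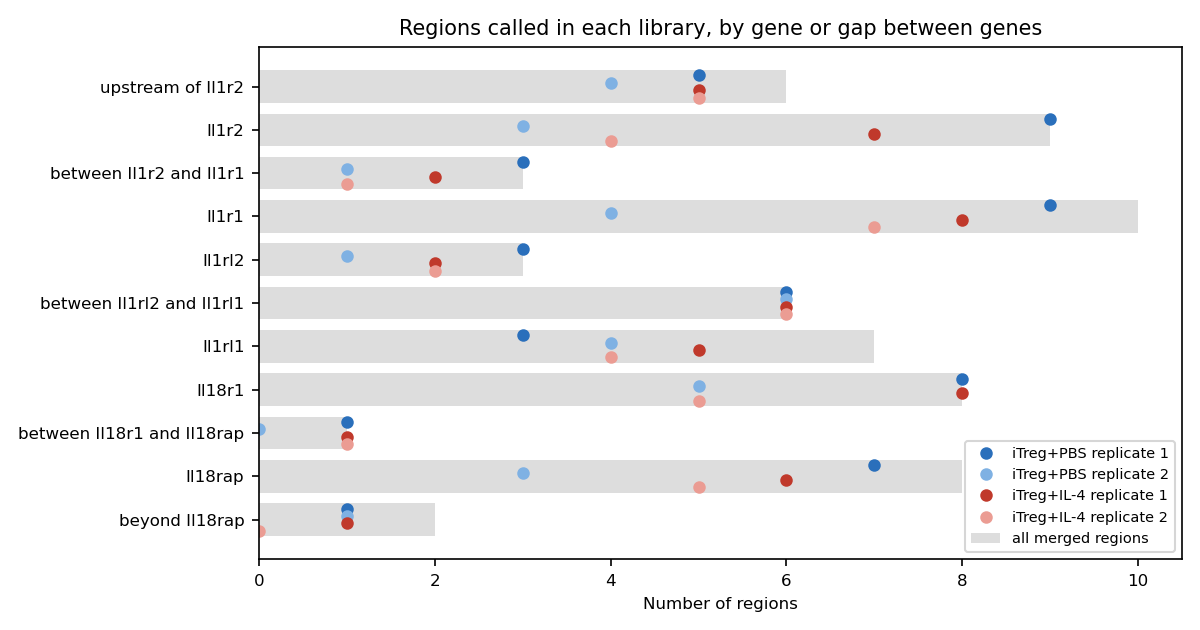
Number of regions called in each library (points) of all merged regions (grey bars), by gene or gap between genes. The 4 points coincide at 6 of 6 in the gap between Il1rl2 and Il1rl1, and in Il1r2 they spread from 3 to 9, with replicate 1 of each condition above replicate 2.

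How open a shared region was could be compared only by its rank, because neither −log10 q nor height is scaled between libraries. The rank percentage used here is the percent of peaks in the same library with a higher −log10 q, so that a smaller value is a peak placed higher in its own list, and it depends on the length of that list. Among the 29 shared regions, ranks with and without IL-4 mostly overlapped. IL-4 libraries ranked higher than both PBS libraries in 2 regions (6.90%), at the Il1rl2 start and in the gap before Il1rl1, against 19.7% of all 47767 shared regions, and lower in 2 regions (6.90%), in the same gap and in Il18r1, against 5.18%. The mean rank percentage with IL-4 minus that without had a median of -1.27 points over the 29 regions (from -24.9 to 11.6), with 18 regions below 0 and 11 above. Over the series the median was -2.05 points, with 5th and 95th percentiles of -16.2 and 7.83, and 73.3% of shared regions were below 0. The direction in the cluster turned with the scaling of the ranks but held with ranks by height, in alternatives chosen after seeing the data. By height within the full lists the median was -1.46 points, with 18 regions below 0 and 11 above, against a series median of -2.03. With lists cut to equal length the median was 2.22 points over 28 regions, 10 below 0 and 18 above, against a series median of 0.0318. With ranks taken among shared regions alone it was 2.23 points, with 11 regions below 0 and 18 above, against 0.0230. Without iTreg+PBS replicate 2 it was 5.89 points and without iTreg+IL-4 replicate 1 it was 3.21, but without iTreg+PBS replicate 1 it was -8.85 and without iTreg+IL-4 replicate 2 it was -6.42. Of the 28 single differences, 8 turned in sign with lists of equal length, the largest of them 5.32 points in size as reported. No direction for the cluster as a whole can be read from these ranks. These shared regions were of middling strength: none of the 29 was in the upper 10% of its list in any library, where 11.8% to 16.5% of all shared regions were.

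The counts in either direction depended on scaling and on single libraries. When ranks were taken among shared regions only, an alternative chosen after seeing the data, 3 of 29 regions ranked higher with IL-4 (14.4% in the series) and 8 lower (12.7%). With lists cut to equal length the numbers were 3 (14.0%) and 9 (12.5%) of 28 regions. Without iTreg+PBS replicate 1, 19 of 29 regions ranked higher with IL-4 (70.8%) and 2 lower (9.94%), and without iTreg+PBS replicate 2, 2 of 37 ranked higher (24.3%) and 22 lower (36.0%). Leaving out iTreg+IL-4 replicate 1 gave 4 of 29 higher (30.2%) and 9 lower (17.9%), and leaving out iTreg+IL-4 replicate 2 gave 9 of 30 higher (48.4%) and 3 lower (12.5%).

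**Figure D3:**
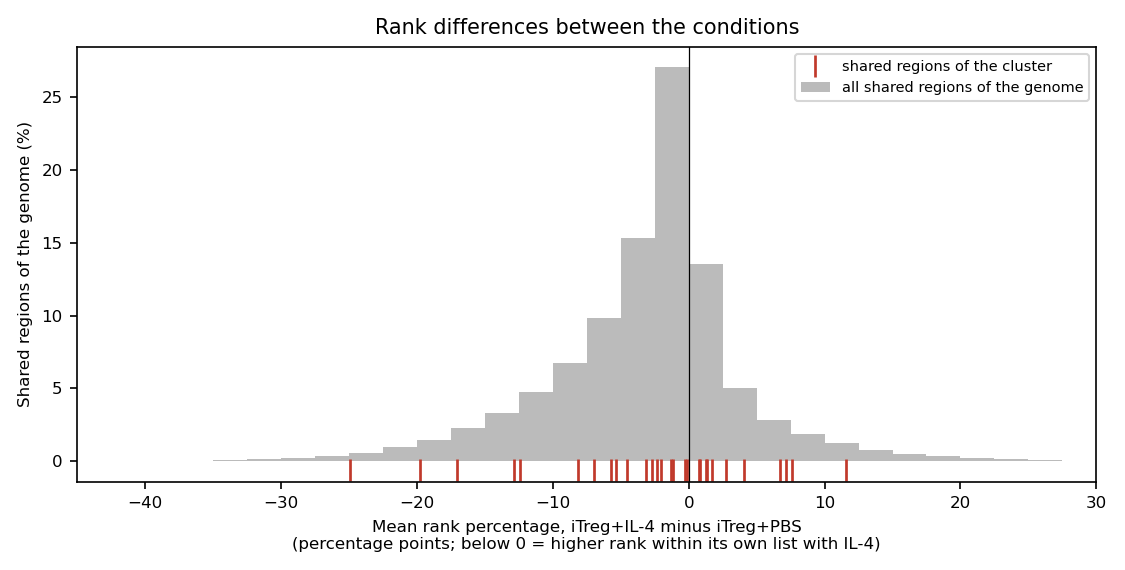
Difference in mean rank percentage (iTreg+IL-4 minus iTreg+PBS, percentage points, below 0 is a higher rank within its own list with IL-4, the lists differing in length) for the 29 shared regions of the cluster (red ticks) and for all 47767 shared regions of the genome (grey histogram, percent of regions). The ticks run from -24.9 to 11.6 and stand on both sides of 0.

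Il1rl1, which encodes the IL-33 receptor ST2, and the gap before it held the regions with the largest differences. In the gap, the region chr1:40393132-40393859 was the strongest, with rank percentages of 11.4 and 25.3 in iTreg+PBS replicates 1 and 2 and of 10.6 and 19.7 in iTreg+IL-4 replicates 1 and 2. Its ranks overlapped between conditions, with replicate 1 stronger than replicate 2 in each. Its neighbour toward Il1rl1, chr1:40399505-40400243, had 35.3 and 60.7 without IL-4, against 25.4 and 31.0 with IL-4. Both IL-4 libraries ranked above both PBS libraries there, by q and by height, with a mean difference of -19.8 points (exact permutation test, two-sided, p = 0.33, the smallest possible). Any region with this order gives this p, here and in the regions below, so it adds nothing to the order by which they were singled out. Its printed stretch holds 3 GATA matches close together and a pair of overlapping NF-kappaB matches.

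The opposite order was found farther upstream in the same gap. The region chr1:40382729-40383389 had rank percentages of 32.5 and 33.2 without IL-4, against 41.9 and 47.1 with IL-4. Both IL-4 libraries ranked below both PBS libraries, by q and by height, and the mean differed by 11.6 points (exact permutation test, two-sided, p = 0.33), the largest shift of the cluster in this direction. With lists of equal length the region differed by 18.5 points in the same order. The next region, chr1:40386042-40386661, had 14.1 and 29.8 without IL-4, against 15.3 and 31.2 with IL-4, and differed by 1.27 points, or by 4.74 with lists of equal length. The remaining regions of the gap, chr1:40380213-40380559 and chr1:40380958-40381387, differed by 7.59 and -2.07 points, with overlapping ranks. With lists of equal length they differed by 15.8 and 1.67 points, and both IL-4 libraries ranked below both PBS libraries in the former.

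Inside Il1rl1, the intronic region chr1:40412989-40413535 had rank percentages of 20.7 and 69.7 in iTreg+PBS replicates 1 and 2, and of 17.1 and 23.4 in iTreg+IL-4 replicates 1 and 2. The mean differed by -24.9 points, the most of the 29 regions, but iTreg+PBS replicate 1 lay between the IL-4 libraries and the PBS replicates lay farther apart than the conditions (exact permutation test, two-sided, p = 0.667). With lists of equal length both IL-4 libraries ranked above both PBS libraries here. Its printed stretch has 2 AP-1 matches of the same letters, TGACTCA. A STAT6-type match, TTCAGAAGAA (chr1:40413063-40413072), lies just outside the printed stretch, within the peaks of 3 libraries and outside that of iTreg+PBS replicate 2. The neighbouring region chr1:40412421-40412733 had 32.0 and 40.6 without IL-4, against 36.2 and 49.7 with IL-4, overlapping ranks with a difference of 6.71 points. With lists of equal length it ranked lower in both IL-4 libraries, by 12.9 points. Farther into the gene, chr1:40444568-40445215 was the strongest peak of Il1rl1 in all libraries but iTreg+IL-4 replicate 2, with 10.2 and 34.9 without IL-4, against 13.0 and 27.4 with IL-4, and differed by -2.37 points, or by 1.00 with lists of equal length.

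The 4 other Il1rl1 regions were weak and each was called in 1 library. None of the 5 RefSeq starts of Il1rl1 had a peak within 1 kb in any library. A GENCODE start at 40436589 had a peak within 1 kb in both IL-4 libraries and in no PBS library, a pattern found at 0.376% of 23152 coding genes, and the reverse at 0.0864%. These were different peaks, however. The peak in iTreg+IL-4 replicate 1, chr1:40436299-40436543, ended 46 bases from the start and had a rank percentage of 99.7. The peak in iTreg+IL-4 replicate 2, chr1:40437116-40437296, began 527 bases beyond it and had a rank percentage of 83.0. Within 250 bases of this start only iTreg+IL-4 replicate 1 had a peak. The nearest peak of iTreg+PBS replicate 2 lay 5296 bases from it, but 1257 bases from another GENCODE start of the gene, 40440628.

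**Figure D4:**
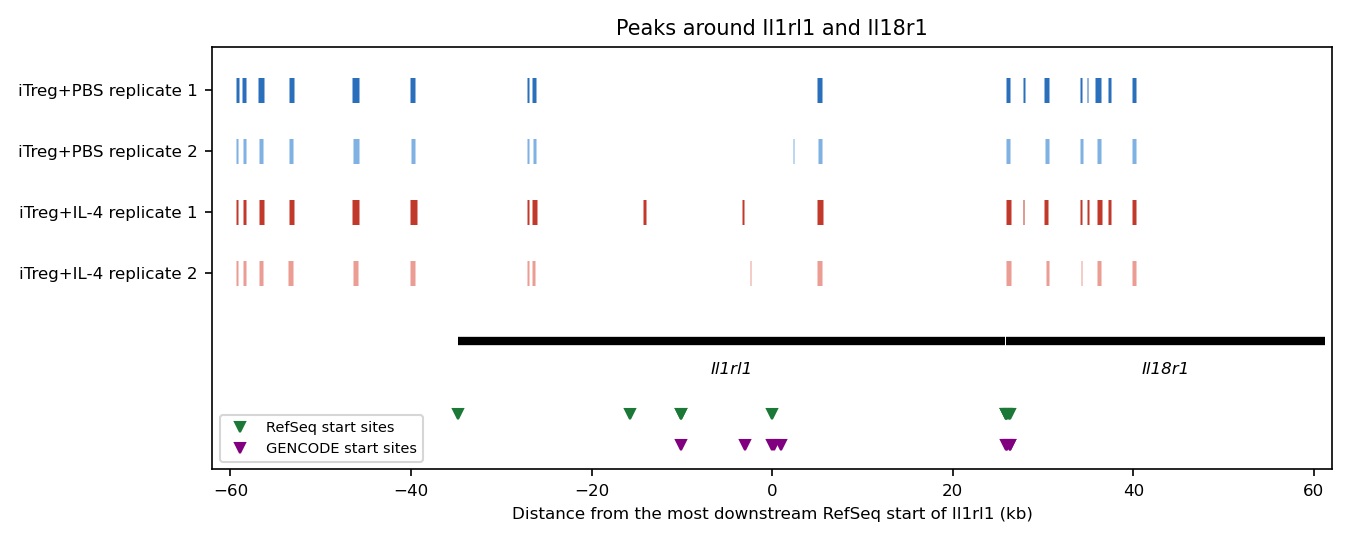
Extents of peaks in each library around Il1rl1 and Il18r1, by distance from the most downstream RefSeq start of Il1rl1 (kb), with annotated start sites as triangles. Peaks shared by all 4 libraries lie on both sides of the Il1rl1 start sites and between the most upstream start and the next. Single-library peaks lie among or near the other Il1rl1 start sites, and the start of Il18r1 lies under a peak in every library.

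Il18r1, the binding chain of the IL-18 receptor, had 5 regions called in all 4 libraries, and in 4 of them ranks overlapped between the conditions. The region over its start, chr1:40465495-40466035, had rank percentages of 12.3 and 18.8 without IL-4, against 14.9 and 17.9 with IL-4. The IL-4 libraries lay between the PBS libraries, and the means differed by 0.827 points, but with lists of equal length both IL-4 libraries ranked below both PBS libraries, by 3.26 points. The start region holds 3 STAT5-type matches, TTCCGGGAA, TTCTGGGAA and TTCCCAGAA, and no STAT6-type match. In the introns, chr1:40475389-40476114 had 22.0 and 22.8 without IL-4, against 24.3 and 20.0 with IL-4, and chr1:40479464-40479910 had 20.2 and 20.1 without IL-4, against 19.3 and 20.7 with IL-4. In both, the PBS values lay inside the range of the IL-4 libraries. Both were picked for the smallest mean differences among the shared intronic regions of the gene. Closeness of the condition means thus follows from the choice, and that of the values depended on the scaling. With lists of equal length the first had 29.9 and 22.8 without IL-4, against 33.7 and 24.0 with IL-4, and the second 27.5 and 20.1, against 26.8 and 24.8, still overlapping. The region chr1:40469721-40470306 was the exception, with 25.0 and 28.3 without IL-4, against 31.0 and 36.6 with IL-4. It ranked lower in both IL-4 libraries by q, by a mean of 7.15 points (exact permutation test, two-sided, p = 0.33), but by height the conditions overlapped. With lists of equal length it kept this order and differed by 12.3 points. The fifth shared region, chr1:40473677-40473998, differed by 0.746 points with overlapping ranks. With lists of equal length it differed by 9.26 points and ranked lower in both IL-4 libraries. The other 3 regions of Il18r1 were called in replicate 1 of each condition only.

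Il18rap, the accessory chain of the same receptor, had a peak over its start in all 4 libraries, chr1:40514996-40515759, with 20.0 and 25.9 without IL-4, against 20.8 and 27.8 with IL-4. The ranks overlapped and differed by 1.34 points, but with lists of equal length both IL-4 libraries ranked below both PBS libraries, by 4.50 points. The 240 bases before the start, printed above, hold a STAT6-type match, TTCATCAGAA, and no STAT5-type match. A second shared region within the first kilobases of the gene, chr1:40516096-40516722, had 22.7 and 41.5 without IL-4, against 32.3 and 40.2 with IL-4, with the IL-4 libraries between the PBS libraries. It ranked lower in both IL-4 libraries, by 10.2 points, with lists of equal length. The other 6 regions of the gene were called in 1 to 3 libraries.

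The receptors for IL-1 lie at the other end of the cluster. Il1r2, the decoy, had its nearest shared peak at chr1:40085488-40086124, which overlaps the noncoding gene Gm16894 as well. Its rank percentages were 29.2 and 36.8 without IL-4, against 32.4 and 31.2 with IL-4. The IL-4 libraries again lay between the PBS libraries. With lists of equal length the rank percentages were 39.8 and 36.8 without IL-4, against 44.9 and 37.3 with IL-4, and overlapped. The difference turned from -1.27 points as reported to 2.80 points. At the main RefSeq start, 40084692, only iTreg+PBS replicate 1 had a peak over the base itself, and the nearest peak of the other libraries lay 796 to 923 bases away. The shared regions at 2 and 32 kb into the gene differed by -12.8 and -5.73 points, or by -6.69 and -2.56 with lists of equal length, and their ranks overlapped on both scales. Upstream of Il1r2, chr1:40059087-40059974 was among the strongest regions of the cluster, with 13.8 and 28.3 without IL-4, against 13.9 and 25.9 with IL-4. It differed by -1.16 points, or by 1.58 with lists of equal length, with overlapping ranks on both scales. The other 3 shared regions there differed by -17.1 to -4.54 points with overlapping ranks. These ran from -15.1 to 3.94 points with lists of equal length, and both IL-4 libraries ranked above both PBS libraries in chr1:40053749-40054208.

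Il1r1, the signalling receptor for IL-1, had no peak within 1 kb of any of its 12 annotated start sites in any library. The nearest peak to the start that RefSeq and GENCODE share at 40225080 lay 2952, 10918, 2963 and 2994 bases away in iTreg+PBS replicates 1 and 2 and iTreg+IL-4 replicates 1 and 2. Its 4 shared regions lay inside the gene, 3 in introns and 1 reaching a noncoding part of an exon, with differences of -12.4 to 1.69 points and overlapping ranks. The 3 that remained with lists of equal length differed by -7.05 to 3.71 points. Within 2 kb, all libraries but iTreg+PBS replicate 2 had a peak near a start. Il1rl2, the IL-36 receptor, had a peak at its start in all 4 libraries, chr1:40324457-40325489, which was weak. Its rank percentages were 61.9 and 63.3 without IL-4, against 60.3 and 48.6 with IL-4, a mean difference of -8.13 points (exact permutation test, two-sided, p = 0.33). Both IL-4 libraries ranked above both PBS libraries by q, but by height, with lists of equal length and with ranks among shared regions the conditions overlapped. In all, 4 of the 6 receptors (Il1r2, Il1rl2, Il18r1 and Il18rap) had a start site peak in all 4 libraries, a pattern found at 58.1% of coding genes. When the upper 50% of each list was kept, Il1rl2 dropped out and 3 receptors remained.

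**Figure D5:**
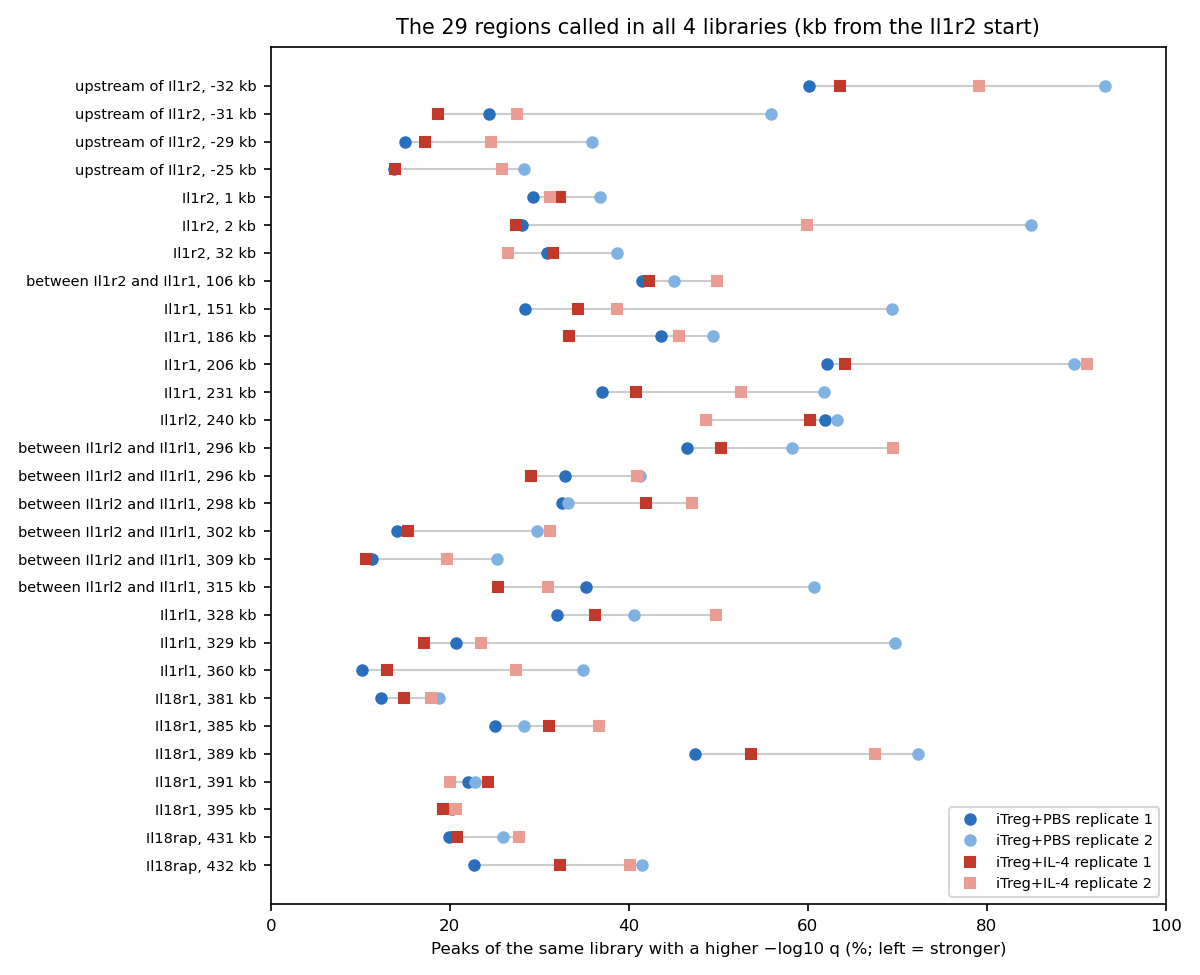
Rank percentages of the 29 shared regions in each library (circles without IL-4, squares with IL-4, left is stronger), ordered along the chromosome and labelled by gene or gap and distance from the Il1r2 start (kb). The region of Il1rl1 at 329 kb has iTreg+PBS replicate 2 far to the right at 69.7. The regions of Il18r1 at 391 and 395 kb have all 4 libraries close together on this scale, which depends on the lengths of the lists. These regions of Il18r1 were picked for the smallest mean differences among its shared intronic regions.

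Ranks along the cluster were closest between the libraries numbered 1. Across the 29 shared regions, Spearman's rho of ranks was 0.931 between replicate 1 of the conditions and 0.725 between replicate 2 of the conditions, while it was 0.721 between the PBS replicates and 0.859 between the IL-4 replicates. Between replicate 1 without IL-4 and replicate 2 with IL-4 it was 0.829. The lowest value, 0.636, was between replicate 2 without IL-4 and replicate 1 with IL-4. The pairs with iTreg+PBS replicate 2 had lower values than all the others. These are descriptions over regions of the same 4 libraries, and over all shared regions of the series rho ran from 0.892 to 0.966.

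The genes that act with these receptors were read in the same way, by a peak within 1 kb of a start site. All 11 signalling genes had it in every library, against 58.1% of coding genes, among them Myd88, the adaptor, with rank percentages of 1.96 and 3.09 without IL-4, against 1.70 and 1.89 with IL-4. Il1rap, the accessory chain shared by the receptors for IL-1, IL-33 and IL-36, had 4.62 and 5.96 without IL-4, against 4.31 and 5.47 with IL-4, and Sigirr, an inhibitory receptor of the family, also had a peak in all 4. The peaks at Myd88 and Il1rap were thus stronger in every library than any shared region of the receptor cluster. Il1rapl1 and Il1rapl2, which are known mainly from neurons, had none. Of 10 ligands and decoys matched by name, Il18, Il18bp and Il33 had a start site peak in all 4 libraries and 6 had none in any, against 58.1% and 35.4% of coding genes. Il1rn, which encodes the IL-1 receptor antagonist, had one in both IL-4 libraries and in no PBS library, as did 0.376% of coding genes, with rank percentages of 91.7 and 88.5.

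The letters of the regions were compared with those of all regions on the assembled chromosomes, in 200 bases around each centre. STAT6-type matches were found in 3 of 63 windows (4.76%), against 5.84% of all windows, and STAT5-type matches in 9 (14.3%), against 8.47%. AP-1 matches were found in 16 windows (25.4% against 12.9%), RUNX in 18 (28.6% against 21.4%), GATA in 12 (19.0% against 13.7%), ETS in 20 (31.7% against 28.4%) and NF-kappaB in 12 (19.0% against 31.1%). Windows of the cluster had a median GC content of 45.5%, against 49.5% over all windows, and its part in these shares was not tested. Over whole regions, 6 held a STAT6-type match (9.52% against 13.6%) and 18 a STAT5-type match (28.6% against 17.9%), with median lengths of 411 bases in the cluster and 457 bases over the series. The whole regions held 231 matches of all motifs, and 10 pairs of matches of different motifs overlapped: 4 of NF-kappaB with ETS, 4 of STAT5 type with ETS and 2 of STAT6 type with ETS. The shares are counts of letters and were not tested.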

How the data were processed

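Peak lists of 4 ATAC-seq libraries were used. The authors sequenced on the BGISEQ-500 platform, mapped pairs to mm10 and called peaks in each library without pooling. The submitters' processing notes name Bowtie2 2.2.5, MACS2 2.1.2 and bedtools 2.16.2. A shift for transposase insertions and the removal of duplicates are not given in the sources used here, and their effect on peak edges was not tested. Each deposited peak carries a value read as −log10 of its q-value (the lowest in each list lies just above −log10 of 0.05) and a height, read as the pileup signal in the deposited lists. Both readings were inferred from the values, and neither is scaled for depth, which is unknown.

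Conditions and replicate numbers came from the labels. Peaks sharing at least 1 base were merged and ranked within their list. The 6 receptors were all named, with every region accounted for. Regions shared by all libraries, particular to a condition or within 1 kb of a start site were described singly where their ranks differed most or marked a start, and the rest by counts. Members and gene lists were chosen with earlier results of these data known. Il36rn had no match in the annotation. The count over the B cell markers is not reported here. Start sites came from RefSeq and GENCODE on GRCm38. Exact permutation tests over the 4 libraries, two-sided, were used for single values. Merging and counting were tested on simulated lists. Python 3.11.15, numpy 2.4.6, pandas 2.3.3, pysam 0.24.0 and matplotlib 3.10.9 were used. Alternatives changed list length, the ranking value, overlap, merging gap, flank, annotation, start site distance and motif window, left out each library, or paired same-numbered libraries.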

Additional observations from a re-analysis of the deposited data

How the results depend on the processing

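Of 100 values recomputed under alternatives, 10 turned in sign, all of them differences between conditions in regions, bases or median rank, and 38 turned in sign or became over 1.5 times larger or smaller. Ranking and cutting lists by height gave -3 regions and -100.5 bases for the difference between conditions. Leaving out 1 library at a time gave differences from -9.5 to 13.5 regions and from -5036 to 6405 bases, 0 to 8 regions called only with IL-4, 0 to 7 called only without IL-4, 2 to 19 shared regions ranked higher with IL-4 and 2 to 22 ranked lower. Keeping the upper 50% of each list left 18 regions in all 4 libraries and 0 ranked higher with IL-4. Height gave 1 ranked higher and 1 lower, and a median rank difference of -1.46 points. Lists of equal length gave 9 ranked lower and a median rank difference of 2.22 points, and ranks among shared regions gave 8 and 2.23, against -1.27 as reported. Leaving out 1 library gave medians from -8.85 to 5.89 points. Recomputing the median, ranking among shared regions and the use of GENCODE gene extents were chosen after seeing the data, and the GENCODE extents moved no count by over 1.5 times. The cause was not tested.

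The labels do not say that equal replicate numbers mark paired cultures. With the number as a replicate block, 8 regions ranked higher with IL-4 in both pairs (43.4% of shared regions in the series) and 8 lower (12.3%). Deviations of same-numbered libraries from their condition means correlated with r = 0.452 over the shared regions of the series and r = 0.542 over the 29. No other count changed with the block.

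Peak lists without reads limit every comparison: the depth behind a missing peak is unknown, and with 2 libraries against 2 the exact permutation test cannot go below 0.33. The list of iTreg+PBS replicate 2 is the shortest. It alone lacked a peak in 8 of the 63 regions (12.7%), against 9.97% of all regions of the series. Those 8 regions were called in iTreg+PBS replicate 1 and both IL-4 libraries.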
